A study of Rattus norvegicus with 12 samples.

Results

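Collagen chain genes were followed in cultured neonatal rat cardiac fibroblasts after knockdown of the Hippo pathway co-activators Yap (gene Yap1) and Wwtr1 (also called Taz), alone and together. The members were all genes of the expression table whose symbol is Col, a number, the letter a and a second number, which gave 24 of the 12271 genes listed. They comprised 9 fibrillar chains, 3 basement membrane chains, 1 beaded-filament chain, 4 FACIT chains (fibril-associated collagens with interrupted triple helices) and 7 other chains. The reference annotation held 44 such symbols, and chains outside the 24, among them Col4a2, Col6a1, Col6a3 and Col12a1, were not analysed here.

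The cells came from ventricles of Sprague Dawley rats at postnatal day 2 (P2), and per the labels were kept in medium with 15% serum and were collected 48 hours after transfection with small interfering RNA (siRNA). Groups of 3 libraries each received universal negative control siRNA (called controls below), Yap siRNA, Wwtr1 siRNA or Yap+Wwtr1 siRNA. Each target was addressed with 2 siRNAs at 25 nM each, transfected 16 hours after plating, and the control group received 2 universal negative control siRNAs. The study's methods differ from the labels: they give a longer interval between plating and transfection and a later change to medium with less serum, and they count the time to collection from that change. The siRNA label of the double knockdown names only the Wwtr1 siRNAs, so its group was taken from the sample titles. The 3 replicates of a group came from different litters. Transfection is transient and lowers a messenger RNA without removing it, and non-transfected cells were not used here.

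Collagens are trimers of alpha chains wound into a triple helix, and each chain is the product of its own gene. Fibrillar collagens assemble into the cross-striated fibrils of the interstitial matrix and of scar, basement membrane collagens form sheets under epithelial, endothelial and muscle cells, and FACIT collagens sit on the surface of fibrils. Cardiac fibroblasts are the main source of fibrillar collagen in the heart, and their activated form, the myofibroblast, lays down the scar after infarction.

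Of the 24 chains, 19 had a promoter in the RefSeq table (build GRCr8), and Col1a1, Col3a1, Col6a2, Col9a3 and Col14a1 had none. The 250 bases before the annotated start are printed for the 7 chains with a promoter whose call in the double knockdown was kept in every fit that left out 1 library, 3 that fell (Col11a1, Col27a1 and Col5a2) and 4 that rose. Capitals mark the letters searched: GGAATG (the TEAD motif, the DNA site of the factors that Yap and Wwtr1 bind), CAGAC (a SMAD motif), CCAAT and TATAAA, on both strands. None of the motifs searched overlapped another in these windows.
Col11a1, chr2:204508886-204509135, plus strand: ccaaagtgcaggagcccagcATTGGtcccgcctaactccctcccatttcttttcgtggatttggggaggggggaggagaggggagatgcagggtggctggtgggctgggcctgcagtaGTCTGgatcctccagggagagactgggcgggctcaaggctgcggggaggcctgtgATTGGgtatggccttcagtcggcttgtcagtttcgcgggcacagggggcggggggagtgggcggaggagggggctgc
Col27a1, chr5:81662658-81662907, plus strand: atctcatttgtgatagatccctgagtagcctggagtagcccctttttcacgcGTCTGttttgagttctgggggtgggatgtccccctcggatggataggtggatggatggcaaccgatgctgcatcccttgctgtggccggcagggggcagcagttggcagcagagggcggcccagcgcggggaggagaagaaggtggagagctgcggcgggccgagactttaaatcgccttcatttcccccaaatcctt
Col5a2, chr9:55090152-55090401, minus strand: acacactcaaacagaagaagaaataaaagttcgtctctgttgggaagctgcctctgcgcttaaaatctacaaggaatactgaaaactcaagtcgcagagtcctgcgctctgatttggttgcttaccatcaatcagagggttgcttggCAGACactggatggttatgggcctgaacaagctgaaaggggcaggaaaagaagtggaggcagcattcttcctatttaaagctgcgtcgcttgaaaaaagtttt
Col5a3, chr8:27625949-27626198, minus strand: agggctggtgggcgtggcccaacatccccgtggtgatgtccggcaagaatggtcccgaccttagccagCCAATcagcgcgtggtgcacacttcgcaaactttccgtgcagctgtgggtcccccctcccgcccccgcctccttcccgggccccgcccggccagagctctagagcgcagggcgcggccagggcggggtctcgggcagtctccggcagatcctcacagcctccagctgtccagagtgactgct
Col16a1, chr5:147672846-147673095, plus strand: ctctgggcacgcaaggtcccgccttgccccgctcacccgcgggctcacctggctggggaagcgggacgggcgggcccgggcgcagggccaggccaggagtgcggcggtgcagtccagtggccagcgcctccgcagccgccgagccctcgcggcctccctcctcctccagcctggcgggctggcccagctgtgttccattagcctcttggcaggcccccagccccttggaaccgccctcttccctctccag
Col18a1, chr20:11473395-11473644, plus strand: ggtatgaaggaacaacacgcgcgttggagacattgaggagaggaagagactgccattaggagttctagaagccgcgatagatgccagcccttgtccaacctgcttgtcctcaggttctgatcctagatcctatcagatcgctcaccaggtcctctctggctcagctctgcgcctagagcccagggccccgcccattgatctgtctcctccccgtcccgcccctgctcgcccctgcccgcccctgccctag
Col7a1, chr8:118483114-118483363, plus strand: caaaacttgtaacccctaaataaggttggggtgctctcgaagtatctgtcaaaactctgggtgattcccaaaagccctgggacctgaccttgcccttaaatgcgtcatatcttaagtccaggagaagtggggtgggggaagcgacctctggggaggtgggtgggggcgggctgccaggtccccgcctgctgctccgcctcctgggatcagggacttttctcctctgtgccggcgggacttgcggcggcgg

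The Col11a1 window held 2 copies of CCAAT and 1 of CAGAC, all read on the reverse strand (as ATTGG and GTCTG), the Col27a1 and Col5a2 windows held 1 CAGAC each, the Col5a3 window held 1 CCAAT, and the Col16a1, Col18a1 and Col7a1 windows held none of the 4 motifs. Over all 19 promoters GGAATG was present in 2 (10.5%), those of Col11a2 and Col17a1, against 11.8% of the 27457 promoters of the reference and 10.1% of the 9677 whose gene is in the expression table. CAGAC was present in 9 of the 19 (47.4%, against 42.8% and 42.0%), CCAAT in 5 (26.3%, against 34.3% and 35.0%) and TATAAA in 3 (15.8%, against 13.1% and 6.72%). A match of letters is a description of the window and does not show binding. Col4a3 and Col4a4 lie head to head on chromosome 9 with 413 bases between their starts, so their windows share 88 bases.

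All levels below are normalized counts, read counts divided by 1 size factor per library by the authors. Log2 fold changes are on the log2(normalized count + 1) scale, and adjusted p-values come from limma over the 11871 genes whose mean was 10 normalized counts or more. A gene was called when its adjusted p was under 0.05. Of the 24 chains, 23 passed the filter on low values. Col26a1 did not: it was listed at 0 in all negative siRNA and Yap siRNA libraries and ran from 0 to 14.2 normalized counts after Wwtr1 siRNA and from 0 to 21.1 after Yap+Wwtr1 siRNA. Gene lengths were not used, so levels are compared between groups and not between chains.

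Both targets were lowered. Yap1 was at 3042, 3776 and 2984 normalized counts in negative siRNA libraries 1 to 3, at 532, 576 and 625 after Yap siRNA (log2 fold change -2.49, adjusted p by limma = 0.000271) and at 713, 739 and 1474 after Yap+Wwtr1 siRNA (log2 fold change -1.82, adjusted p by limma = 0.000107). Wwtr1 was at 2364, 2565 and 2280 normalized counts in controls, at 524, 550 and 637 after Wwtr1 siRNA (log2 fold change -2.08, adjusted p by limma = 2.33e-05) and at 818, 731 and 1056 after Yap+Wwtr1 siRNA (log2 fold change -1.48, adjusted p by limma = 1.66e-05). The third double knockdown library stood apart: its Yap1 level was above that of both its replicates, its Col3a1 level was the highest of the 12 libraries, and the macrophage marker Cd68 was at 8673 normalized counts there against 1598 and 3238 in its replicates and 2839 to 4758 in controls. Library totals were 33.9 to 41.1 M reads, and the 2 deepest were double knockdown libraries 2 and 3.

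All 12 fibroblast markers, 3 of them collagen chains, were present in every library, and so were all 9 cardiomyocyte markers measured. The series design text speaks of myocytes where the sample labels give fibroblasts. In the double knockdown Dcn, Lum, Pdgfra and Postn rose and Col1a2, Tcf21 and Vim fell among the fibroblast markers. The Lum call was lost without negative siRNA replicate 3 and the Tcf21 call without negative siRNA replicate 1 or 2 or double knockdown replicate 1. Lum was at 9037, 8338 and 27679 normalized counts and Dcn at 19496, 16321 and 51879 in double knockdown libraries 1 to 3, both highest in the third. Markers of other cell types were called too, where 17.1% of all genes were called higher and 15.6% lower. Cardiomyocyte markers rose in 3 of 9 (summed level 35665 to 61442 normalized counts in controls and 61263 to 79098 after Yap+Wwtr1 siRNA). Myh6 had the largest rise in level among them, with a mean of 8033 in controls and 26972 after Yap+Wwtr1 siRNA. The means of Tnnt2 (19603 and 16353) and Nppa (11697 and 9703) were lower after Yap+Wwtr1 siRNA, and those of the other cardiomyocyte markers were higher. Endothelial markers rose in 4 of 7 (783 to 1181 and 1443 to 2273). The calls of the cardiomyocyte markers Myl2 and Tnni3 were both lost without negative siRNA replicate 3 or double knockdown replicate 2 or 3, and those of the endothelial markers Cdh5 and Vwf without double knockdown replicate 3. Emcn, an endothelial marker that was not called, passed the filter on low values only through the double knockdown libraries. Of 6 mural markers 3 rose and 1 fell (26624 to 32040 and 20341 to 28512), and of 4 mesothelial markers 1 rose and 1 fell (1128 to 1657 and 1630 to 2145). Of 7 macrophage markers 1 fell, Cx3cr1, at 276, 260 and 295 normalized counts in controls and 0, 24.2 and 48.3 after Yap+Wwtr1 siRNA. Cx3cr1 ran from 51.2 to 62.8 after Yap siRNA and from 21.9 to 95.5 after Wwtr1 siRNA, where it was not called. The summed level of the macrophage markers ran from 18785 to 27493 in controls and from 5868 to 40835 after Yap+Wwtr1 siRNA, the highest in the third library. S100b, used as a glial marker, rose in the double knockdown (log2 fold change 1.39, adjusted p by limma = 0.0169), a call lost without negative siRNA replicate 2 or 3 or double knockdown replicate 2. It was higher after Yap siRNA than after Wwtr1 siRNA (1.68, adjusted p by limma = 0.022), a call lost without Yap siRNA replicate 1 or 2 or Wwtr1 siRNA replicate 1. The single knockdowns called fewer markers against the negative control, where 4.8% of all genes were called after Yap siRNA and 8.96% after Wwtr1 siRNA. Postn and Upk1b rose and Notch3 fell after Yap siRNA, and Pdgfrb and Tek rose after Wwtr1 siRNA. When 1 library at a time was left out none of these calls held in all 12 fits: the number lost was 9 for Upk1b, 5 for Postn, 4 for Notch3, 4 for Pdgfrb and 3 for Tek. Summed mural markers ran from 18244 to 24318 normalized counts after Yap siRNA and from 33861 to 45629 after Wwtr1 siRNA, and summed macrophage markers from 9845 to 17222 after Wwtr1 siRNA. Notch3 made up the largest part of the mural sums, at a mean of 18040 in controls, 10997 after Yap siRNA and 26042 after Wwtr1 siRNA. The median log2 fold change of the 6 mural markers was -0.05 after Yap siRNA and 0.04 after Wwtr1 siRNA. Cx3cr1, Emcn and Krt19 were each at 0 in at least 1 library. The part of these other cells in the collagen values was not tested. In bulk RNA, fewer cells of a type and less RNA per cell cannot be told apart.

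The double knockdown moved collagen chains in both directions. Of the 23 chains tested, 5 rose and 6 fell, 47.8% of them, where 32.8% of all genes tested were called (17.1% higher and 15.6% lower). Among the 9 fibrillar chains Col5a3 rose and Col11a1, Col27a1, Col5a2 and Col1a2 fell, with a median log2 fold change of -0.24. Of the 3 basement membrane chains Col4a1 fell, of the 4 FACIT chains Col16a1 rose and Col14a1 fell, and of the 6 other chains tested Col7a1, Col15a1 and Col18a1 rose (median 0.70). The median over all 23 chains was 0.09 and over all genes 0.00353. Without double knockdown replicate 3, 5 chains rose and 5 fell, where 34.2% of all genes were called. The 3 double knockdown libraries lay above all other 9 for Col16a1, Col7a1, Col15a1 and Col18a1, an ordering found for 8.63% of all genes tested, and below all other 9 for Col5a1, Col11a1 and Col14a1, found for 6.74% of genes.

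**Figure D1:**
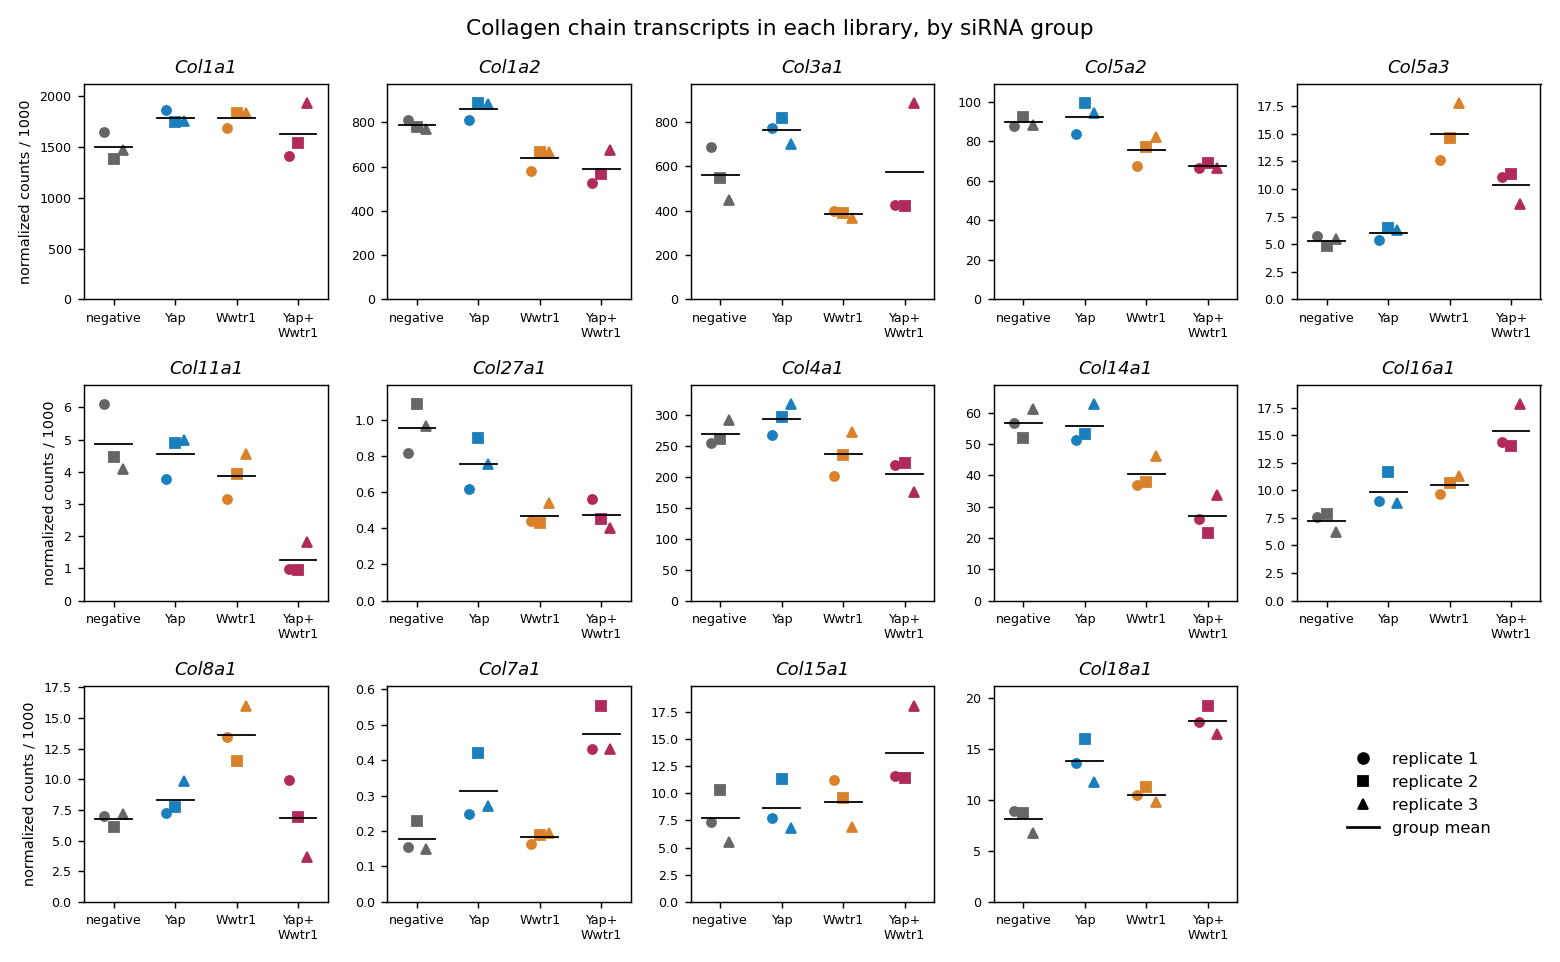
Normalized counts, divided by 1000, of 14 collagen chains in each of the 12 libraries by siRNA group, with 1 symbol per replicate number and a line at the group mean. Col11a1 and Col14a1 are lowest in the double knockdown, Col16a1, Col7a1 and Col18a1 are highest there, and the third double knockdown library carries the highest Col3a1 value, 883696 normalized counts.

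Among the fibrillar chains, Col11a1, a chain of type XI collagen that nucleates thin fibrils and is best known from cartilage, fell the most. Its level was 6089, 4453 and 4079 normalized counts in controls, 3770, 4880 and 4984 after Yap siRNA, 3146, 3925 and 4544 after Wwtr1 siRNA and 992, 959 and 1816 after Yap+Wwtr1 siRNA. The single knockdown libraries overlapped the negative control libraries, and the double knockdown libraries lay below all of them. Its mean in the double knockdown was 0.258 times that of the negative control (log2 fold change -1.999, SE 0.24, adjusted p by limma = 0.000101), whereas Yap siRNA gave -0.09 (SE 0.24, adjusted p by limma = 0.885) and Wwtr1 siRNA -0.33 (SE 0.24, adjusted p by limma = 0.451).

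Col27a1, a short-helix fibrillar chain expressed in cartilage, was at 818, 1085 and 965 normalized counts in controls, 619, 897 and 754 after Yap siRNA, 441, 427 and 541 after Wwtr1 siRNA and 560, 451 and 403 after Yap+Wwtr1 siRNA. Both groups that received Wwtr1 siRNA lay below the negative control without overlap, at 0.491 and 0.493 times its mean. The log2 fold change was -1.02 (SE 0.17) in both, with adjusted p by limma = 0.00344 for Wwtr1 siRNA and 0.000829 for Yap+Wwtr1 siRNA. After Yap siRNA the log2 fold change was -0.34 (SE 0.17, adjusted p by limma = 0.289).

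Type V collagen, which sets the diameter of type I fibrils, has 3 chains in the table, and they did not move together. Col5a3 was at 5741, 4819 and 5438 normalized counts in controls, 5382, 6484 and 6263 after Yap siRNA, 12592, 14652 and 17774 after Wwtr1 siRNA and 11093, 11402 and 8635 after Yap+Wwtr1 siRNA. It rose 2.81-fold after Wwtr1 siRNA (log2 fold change 1.48, SE 0.14, adjusted p by limma = 0.000158) and 1.95-fold after Yap+Wwtr1 siRNA (0.95, SE 0.14, adjusted p by limma = 0.000342). All Wwtr1-depleted libraries, single and double, were above all others.

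Col5a2, in contrast, was at 87736, 92363 and 88450 normalized counts in controls, 83620, 99229 and 94477 after Yap siRNA, 67708, 77064 and 82056 after Wwtr1 siRNA and 66595, 69104 and 66459 after Yap+Wwtr1 siRNA. It fell to 0.753 times the negative control in the double knockdown (log2 fold change -0.41, SE 0.09, adjusted p by limma = 0.00468). The Wwtr1 siRNA libraries also lay below the negative control (-0.25, SE 0.09), but with adjusted p by limma = 0.117 they did not pass. Col5a1 ran from 68935 to 79715 normalized counts in controls and from 58391 to 64868 after Yap+Wwtr1 siRNA, with a log2 fold change of -0.24 (SE 0.11, adjusted p by limma = 0.134). Col5a2 and Col3a1 are neighbouring genes on chromosome 9.

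The type I and type III chains Col1a1, Col1a2 and Col3a1 held 82.0% of the collagen counts in controls. Col1a1, the alpha1 chain of type I collagen, was at 1644809, 1379994 and 1467397 normalized counts in controls, 1860586, 1748533 and 1753146 after Yap siRNA, 1684619, 1835982 and 1828735 after Wwtr1 siRNA and 1410239, 1541641 and 1928540 after Yap+Wwtr1 siRNA. Libraries of both single knockdowns were above the negative control libraries, by 1.19-fold in the mean each, but neither difference passed (log2 fold change 0.26 and 0.25, SE 0.17, adjusted p by limma = 0.447 and 0.406). In the double knockdown the log2 fold change was 0.11 (95% interval -0.26 to 0.48, adjusted p by limma = 0.66).

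Col1a2, the alpha2 chain that joins Col1a1 in the type I trimer, was at 810290, 778477 and 769292 normalized counts in controls, 808117, 885754 and 883116 after Yap siRNA, 580115, 664935 and 666534 after Wwtr1 siRNA and 523770, 566171 and 675761 after Yap+Wwtr1 siRNA. Both Wwtr1-depleted groups lay below the negative control. The fall passed in the double knockdown (log2 fold change -0.43, SE 0.14, adjusted p by limma = 0.0308) and not after Wwtr1 siRNA alone (-0.31, SE 0.14, adjusted p by limma = 0.195). The Col1a2 call in the double knockdown was lost in 5 fits that each left out 1 library, any of the 3 negative siRNA libraries or double knockdown library 1 or 2 (log2 fold change -0.44 to -0.35, adjusted p by limma from 0.0644 to 0.116).

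Col3a1, the single chain of type III collagen, was at 688661, 547631 and 449105 normalized counts in controls, 771692, 817599 and 700182 after Yap siRNA, 400143, 391486 and 365700 after Wwtr1 siRNA and 423429, 418676 and 883696 after Yap+Wwtr1 siRNA. All Yap siRNA libraries were above, and all Wwtr1 siRNA libraries below, the negative control. The double knockdown split, with 2 libraries under and 1 over all negative control values, so that its coefficient of variation was 46.4% against 4.64% after Wwtr1 siRNA. None of the 3 differences from the negative control passed (log2 fold change 0.46, -0.52 and -0.04, SE 0.26), but with replicates paired and the double knockdown libraries left out both single knockdowns did (adjusted p by limma = 0.0092 for Yap siRNA and 0.00351 for Wwtr1 siRNA). Without double knockdown library 3 the Wwtr1 siRNA difference passed (-0.52, adjusted p by limma = 0.04) and the double knockdown log2 fold change was -0.39 (adjusted p by limma = 0.084). Col11a2, a minor chain of type XI collagen, ran from 33.99 to 152 normalized counts over the 12 libraries and was not called against the negative control by limma without pairing, although DESeq2 called it after Yap siRNA (DESeq2 adjusted p = 0.049).

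**Figure D2:**
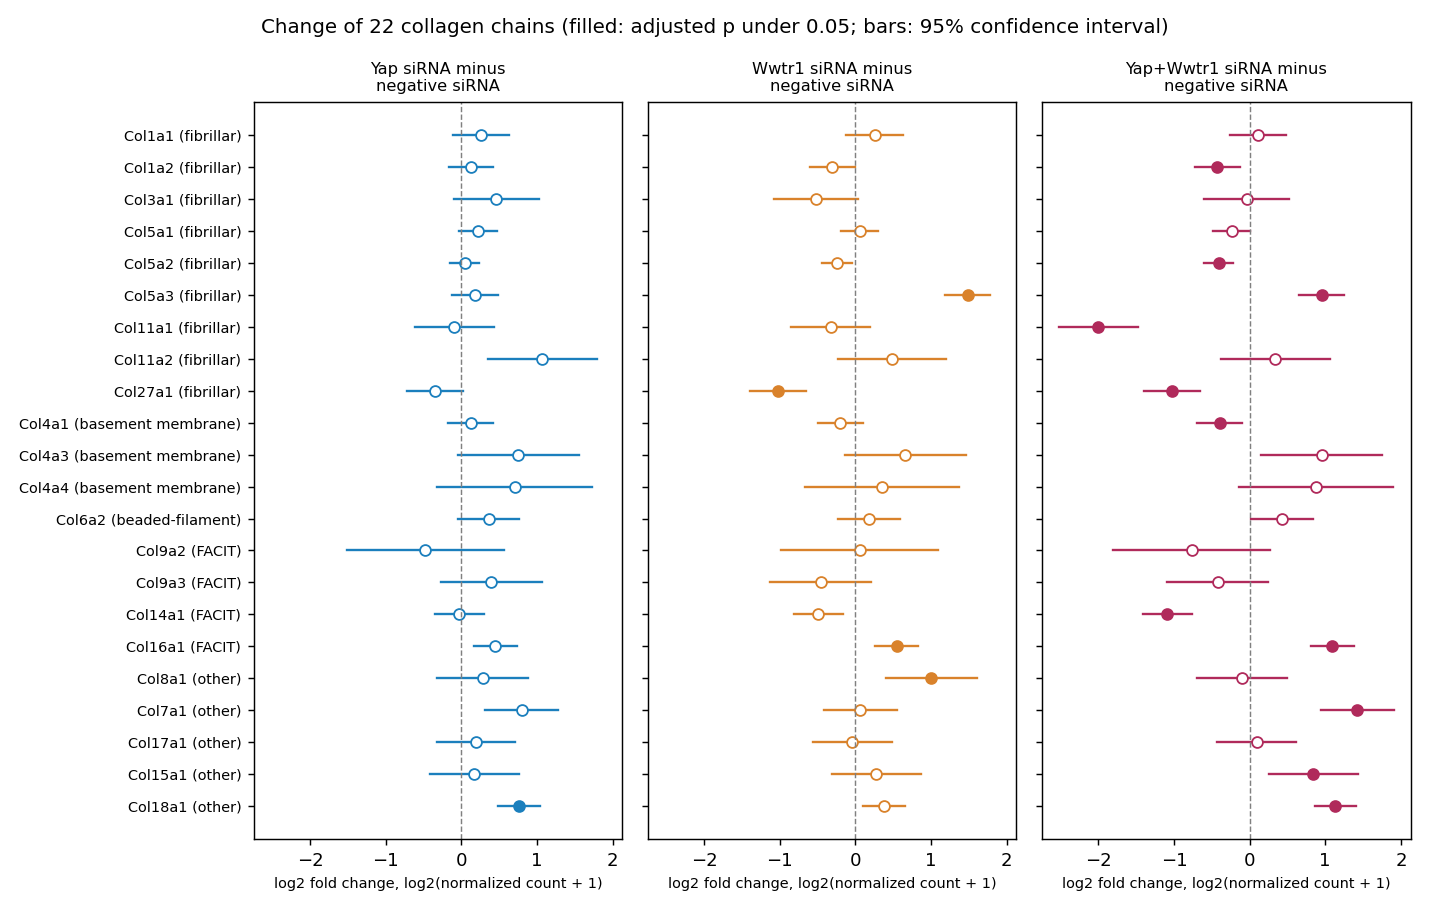
Log2 fold change against negative siRNA with its 95% interval for 22 collagen chains, grouped by class, for Yap siRNA, Wwtr1 siRNA and Yap+Wwtr1 siRNA, with filled symbols where the adjusted p by limma was under 0.05. Filled symbols are 1 for Yap siRNA, 4 for Wwtr1 siRNA and 11 for Yap+Wwtr1 siRNA, and they stand on both sides of 0 in the double knockdown.

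Among the basement membrane chains, Col4a1, which pairs with Col4a2 in nearly all basement membranes, was at 255100, 261021 and 291818 normalized counts in controls, 267948, 296397 and 317091 after Yap siRNA, 201107, 235301 and 272480 after Wwtr1 siRNA and 218970, 221671 and 175598 after Yap+Wwtr1 siRNA. The double knockdown libraries lay below the negative control, and the single knockdown libraries overlapped it. The fall after Yap+Wwtr1 siRNA (log2 fold change -0.40, SE 0.14, adjusted p by limma = 0.0438) had the largest adjusted p of the chains called. It was lost in 9 of 12 fits that left out 1 library, all except those without Yap siRNA replicate 1 or Wwtr1 siRNA replicate 1 or 3 (log2 fold change -0.46 to -0.29, adjusted p by limma from 0.0502 to 0.144 in the fits that lost it).

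Col4a3 and Col4a4, which with Col4a5 form the network of the glomerular basement membrane, were present at low levels. Col4a3 ran from 88.9 to 249 normalized counts in controls, from 172 to 308 after Yap siRNA, from 206 to 280 after Wwtr1 siRNA and from 186 to 360 after Yap+Wwtr1 siRNA (log2 fold change 0.95, SE 0.37, adjusted p by limma = 0.066), and it passed without negative siRNA replicate 2 (1.33, adjusted p by limma = 0.0155) or without double knockdown replicate 3 (1.26, adjusted p by limma = 0.0205). DESeq2 called Col4a3 in the double knockdown (DESeq2 adjusted p = 0.0456). Col4a4 ran from 28.9 to 58.5 normalized counts in controls and from 51.8 to 199 after Yap+Wwtr1 siRNA and was not called.

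The beaded-filament chain in the table, Col6a2, forms microfibrils with Col6a1 and Col6a3. It ran from 71693 to 108443 normalized counts in controls and from 97502 to 152108 after Yap+Wwtr1 siRNA, the highest in double knockdown library 3. The log2 fold change was 0.43 (SE 0.19, adjusted p by limma = 0.0992), and it passed without double knockdown replicate 2 (0.58, adjusted p by limma = 0.0477). DESeq2 called Col6a2 in the double knockdown (DESeq2 adjusted p = 0.0445).

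The 2 abundant FACIT chains moved in opposite directions. Col14a1, which binds the surface of mature fibrils, was at 56859, 52011 and 61136 normalized counts in controls, 51239, 53089 and 62643 after Yap siRNA, 37015, 37854 and 46183 after Wwtr1 siRNA and 25938, 21621 and 33569 after Yap+Wwtr1 siRNA. Libraries with both siRNAs were lower than all after Wwtr1 siRNA, which in turn were lower than all negative control libraries. Col14a1 fell to 0.477 times the negative control in the double knockdown (log2 fold change -1.09, SE 0.15, adjusted p by limma = 0.000239), and after Wwtr1 siRNA the log2 fold change was -0.49 (SE 0.15, adjusted p by limma = 0.0606), which passed without double knockdown replicate 2 (adjusted p by limma = 0.0368) or replicate 3 (adjusted p by limma = 0.0165).

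Col16a1, a chain found near fibrils and basement membranes, was at 7610, 7848 and 6205 normalized counts in controls, 9030, 11698 and 8887 after Yap siRNA, 9635, 10628 and 11278 after Wwtr1 siRNA and 14409, 13987 and 17798 after Yap+Wwtr1 siRNA. Each knockdown group lay above the negative control without overlap. It rose 2.13-fold in the double knockdown (log2 fold change 1.09, SE 0.13, adjusted p by limma = 0.000105) and 1.46-fold after Wwtr1 siRNA (0.55, SE 0.13, adjusted p by limma = 0.0233). The Wwtr1 siRNA call was lost without negative siRNA replicate 3 (0.44, adjusted p by limma = 0.0973), Wwtr1 siRNA replicate 2 (0.54, adjusted p by limma = 0.0805) or replicate 3 (0.49, adjusted p by limma = 0.0761). After Yap siRNA the difference (0.45, SE 0.13) had adjusted p by limma = 0.0781, and 0.0436 without double knockdown replicate 3.

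Col9a2 and Col9a3, chains of the cartilage FACIT type IX, ran from 21.9 to 101 and from 104 to 351 normalized counts over the 12 libraries. Neither was called in a comparison with the negative control, although Col9a3 passed in the double knockdown without replicate 2 (log2 fold change -0.79, adjusted p by limma = 0.046).

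The remaining chains rose where they were called. Col18a1, a multiplexin (a collagen with many interruptions of the helix), lies in basement membranes, and its end fragment is endostatin, an inhibitor of vessel growth. Its level was 8909, 8730 and 6778 normalized counts in controls, 13597, 16009 and 11800 after Yap siRNA, 10499, 11299 and 9759 after Wwtr1 siRNA and 17646, 19256 and 16448 after Yap+Wwtr1 siRNA. Every knockdown library was above every negative control library, and the double knockdown libraries were above all others. Col18a1 rose 1.70-fold after Yap siRNA (log2 fold change 0.76, SE 0.13, adjusted p by limma = 0.00857) and 2.18-fold after Yap+Wwtr1 siRNA (1.14, SE 0.13, adjusted p by limma = 6.99e-05), and the Wwtr1 siRNA difference (0.38, SE 0.13, adjusted p by limma = 0.0864) did not pass.

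Col15a1, the other multiplexin and a chain of vascular and muscle basement membranes, was at 7335, 10280 and 5482 normalized counts in controls, 7720, 11293 and 6797 after Yap siRNA, 11203, 9540 and 6857 after Wwtr1 siRNA and 11594, 11370 and 18092 after Yap+Wwtr1 siRNA. The double knockdown libraries were above all others. The rise there (log2 fold change 0.84, SE 0.27, adjusted p by limma = 0.0314) was lost without negative siRNA replicate 1 (0.83, adjusted p by limma = 0.0729) or 3 (0.62, adjusted p by limma = 0.133) or without double knockdown replicate 3 (0.62, adjusted p by limma = 0.0954).

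Col7a1, the chain of the anchoring fibrils that tie epithelia to the stroma, was at 155, 229 and 150 normalized counts in controls, 247, 421 and 271 after Yap siRNA, 164, 190 and 195 after Wwtr1 siRNA and 432, 554 and 433 after Yap+Wwtr1 siRNA. Libraries after Wwtr1 siRNA alone overlapped the negative control, and those after Yap siRNA, alone or in the double knockdown, lay above it. The rise was 2.66-fold in the double knockdown (log2 fold change 1.42, SE 0.22, adjusted p by limma = 0.00057). After Yap siRNA the log2 fold change was 0.80 (SE 0.22, adjusted p by limma = 0.064) and passed without negative siRNA replicate 2 (0.99, adjusted p by limma = 0.0483).

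Col8a1, a network-forming chain of vessel walls, was at 7025, 6133 and 7139 normalized counts in controls, 7258, 7724 and 9869 after Yap siRNA, 13444, 11504 and 16019 after Wwtr1 siRNA and 9918, 6887 and 3670 after Yap+Wwtr1 siRNA. The Wwtr1 siRNA libraries were above all others, and the double knockdown libraries spread on both sides of the negative control. Col8a1 rose 2.02-fold after Wwtr1 siRNA (log2 fold change 1.00, SE 0.27, adjusted p by limma = 0.042). That call was lost in 9 of 12 fits that left out 1 library, all except those without Yap siRNA replicate 3 or double knockdown replicate 1 or 3 (log2 fold change 0.88 to 1.12, adjusted p by limma from 0.0529 to 0.123 in the fits that lost it). The transmembrane chains Col17a1 (133 to 234 normalized counts over the 12 libraries) and Col13a1 (0 to 36.6) were not called.

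Each co-activator was also depleted alone. After Yap siRNA 1 of 23 chains was called, Col18a1, where 4.8% of all genes tested were called. The median log2 fold change over the 23 chains was 0.26 and 19 of them were positive, against a median of -0.0041 over all genes. After Wwtr1 siRNA 4 of 23 chains were called, Col5a3, Col8a1 and Col16a1 higher and Col27a1 lower, where 8.96% of all genes were called, and the median over the chains was 0.06. The Yap siRNA count became 2 without negative siRNA replicate 2 (2.19% of all genes called) or double knockdown replicate 3 (6.44%), and the Wwtr1 siRNA count became 2 without negative siRNA replicate 3 (4.74%) or Wwtr1 siRNA replicate 2 (4.62%) or 3 (6.73%). All 3 comparisons share the same negative siRNA libraries.

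Same-numbered libraries of the negative, Yap and Wwtr1 siRNA groups deviated together, so these comparisons were also fitted with the replicate number as a block and without the double knockdown libraries. In that paired fit Yap siRNA called 7 chains, all higher, where 16.2% of all genes were called: Col18a1 and, in addition, Col6a2 (adjusted p by limma = 0.0035), Col7a1 (0.00815), Col16a1 (0.00911), Col3a1 (0.0092), Col8a1 (0.0296) and Col11a2 (0.044). The paired fit for Wwtr1 siRNA called 9 chains, 4 higher and 5 lower, where 21.6% of genes were called. The additions were Col18a1 (higher, adjusted p by limma = 0.00224) and Col14a1 (0.000171), Col3a1 (0.00351), Col5a2 (0.0161) and Col1a2 (0.0191), all lower. With the block and all 12 libraries Yap siRNA called 2 chains, Col7a1 being added (adjusted p by limma = 0.014), where 7.36% of all genes were called. After Wwtr1 siRNA that fit, which called 11.1% of all genes, added Col18a1 (adjusted p by limma = 0.00875) and Col14a1 (0.00661), whereas Col8a1 was lost (0.0526).

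The single knockdowns were compared directly with each other. Of the 23 chains, 3 differed, where 8.79% of all genes did. The count became 1 without Yap siRNA replicate 2 (4.84% of all genes called) or Wwtr1 siRNA replicate 1 (5.64%) or 2 (3.66%), 5 without double knockdown replicate 2 (7.77%) and 6 without double knockdown replicate 3 (11.9%). Col5a3 was lower after Yap siRNA than after Wwtr1 siRNA (log2 difference -1.30, SE 0.14, adjusted p by limma = 0.000431), and this held in every fit that left out a library. Col3a1 (0.98, SE 0.26, adjusted p by limma = 0.036) and Col27a1 (0.68, SE 0.17, adjusted p by limma = 0.0297) were higher after Yap siRNA. The Col3a1 difference was lost without negative siRNA replicate 2 or any 1 of the 6 libraries compared (log2 difference 0.93 to 1.04, adjusted p by limma up to 0.106), and the Col27a1 difference without Yap siRNA replicate 2 or 3 or Wwtr1 siRNA replicate 1 or 2 (0.55 to 0.67, adjusted p by limma from 0.0684 to 0.111). In the paired fit without the double knockdown libraries 11 chains differed, where 22.8% of genes did. Col1a2, Col4a1, Col5a2, Col18a1, Col14a1, Col9a3 and Col7a1 were then also higher after Yap siRNA and Col8a1 lower (adjusted p by limma from 0.000152 to 0.00968). With the block and all 12 libraries 7 chains differed, where 10.6% of all genes did, the additions being Col5a2 (adjusted p by limma = 0.0405), Col18a1 (0.00999), Col14a1 (0.0107) and Col7a1 (0.0152).

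Whether the double knockdown differed from the sum of both single effects was tested as an interaction on the log2 scale. No chain was called by limma without pairing, where 1.03% of all genes were, and 6 chains had an unadjusted p under 0.05, where 14% of all genes had. edgeR on the recovered reads also called 0 chains, where it called 0.859% of all genes, with 7 at an unadjusted p under 0.05, where 14% of all genes were. DESeq2 called 3 chains, Col11a1, Col5a3 and Col5a1, where it called 4.21% of all genes, with 7 at an unadjusted p under 0.05, where 14.5% of all genes were. Col11a1 came nearest to the threshold in limma (interaction -1.58, SE 0.34, adjusted p by limma = 0.0502), and it passed without double knockdown replicate 3 (-1.88, adjusted p by limma = 0.00875), with the replicate block (adjusted p by limma = 0.0416), with TMM scaling (0.0481), with a filter at a mean of 100 (0.0479) or with pseudocount 10 (0.0463).

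The share of all normalized counts that came from the 24 collagen chains, a value that does not depend on the size factor, was 10.1%, 9.17% and 8.87% in controls (mean 9.40% ± 0.665, SD, n = 3). It was 11.1%, 11.5% and 10.9% after Yap siRNA (11.2% ± 0.303), 9.02%, 9.59% and 9.49% after Wwtr1 siRNA (9.37% ± 0.307) and 8.53%, 8.92% and 11.2% after Yap+Wwtr1 siRNA (9.56% ± 1.46). All Yap siRNA libraries were above all negative control libraries, and the other groups overlapped the control. The exact permutation test (two-sided, 3 libraries against 3) gave p = 0.1 for Yap siRNA, the smallest this design can give, 1 for Wwtr1 siRNA and 0.9 for Yap+Wwtr1 siRNA (0.3, 1 and 1 after Benjamini-Hochberg adjustment over the 3 exact tests). The Yap siRNA difference of 1.80 percentage points lay mostly in Col1a1, Col1a2 and Col3a1, without which it was 0.215. Without double knockdown replicate 3 the difference of the double knockdown changed from 0.167 to -0.67 percentage points.

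By class, the mean FACIT share was 0.174% of all counts in controls and 0.122% after Yap+Wwtr1 siRNA, the basement membrane share 0.731% and 0.592%, and the share of the other chains 0.0623% and 0.112%. In each of these 3 classes the double knockdown libraries did not overlap the negative control, but the exact permutation p was 0.1, which cannot pass with 3 libraries against 3. Most of the FACIT share was Col14a1 (0.154% and 0.0774%), while the Col16a1 share was 0.0196% and 0.0441%. Nearly all of the basement membrane share was Col4a1 (0.730% and 0.591%), while Col4a3 held 0.000435% and 0.000856% and Col4a4 0.000132% and 0.0003%. The fibrillar share was 8.18% and 8.39% (exact permutation p = 0.9).

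**Figure D3:**
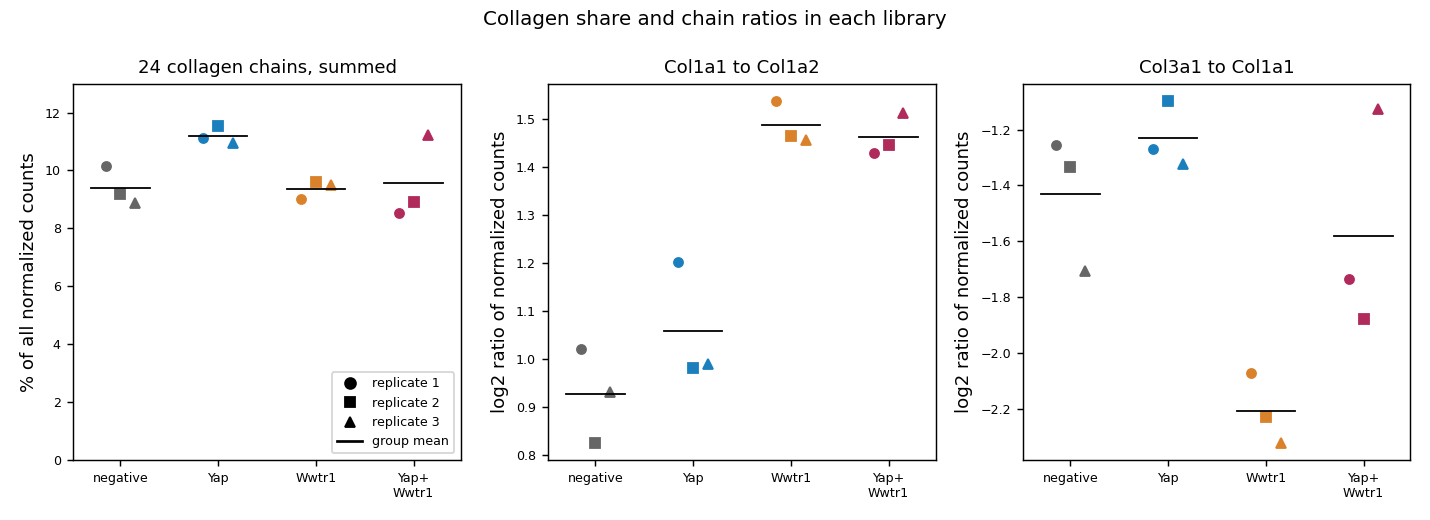
For each of the 12 libraries by siRNA group, the percent of all normalized counts from the 24 collagen chains and the log2 ratios of Col1a1 to Col1a2 and of Col3a1 to Col1a1 within the library. Both groups that received Wwtr1 siRNA have a Col1a1 to Col1a2 log2 ratio of 1.43 to 1.54, above the 0.83 to 1.20 of the other 6 libraries.

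Ratios of chains within a library, which do not depend on the size factor either, are given without a test. They are ratios of counts, not of molecules. The log2 ratio of Col1a1 to Col1a2, the 2 chains of type I collagen, was 1.02, 0.83 and 0.93 in controls, 1.20, 0.98 and 0.99 after Yap siRNA, 1.54, 1.47 and 1.46 after Wwtr1 siRNA and 1.43, 1.45 and 1.51 after Yap+Wwtr1 siRNA. As linear ratios the group means were 1.90, 2.08, 2.80 and 2.76. The Wwtr1-depleted groups did not overlap the other groups, and the double knockdown and Wwtr1 siRNA groups overlapped each other. The log2 ratio of Col3a1 to Col1a1 was -1.26, -1.33 and -1.71 in controls, -1.27, -1.10 and -1.32 after Yap siRNA, -2.07, -2.23 and -2.32 after Wwtr1 siRNA and -1.74, -1.88 and -1.13 after Yap+Wwtr1 siRNA. Libraries after Wwtr1 siRNA alone were below all others, and the double knockdown libraries fell on both sides of the negative control.

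Genes that act on collagen chains were taken from a list of 47, of which 40 passed the filter on low values. Itga10 passed it only through the double knockdown libraries and is left out of the counts. Of the other 39 genes 9 rose and 10 fell in the double knockdown, 48.7% of them, where 32.8% of all genes were called. Yap siRNA called 7 higher and 1 lower (20.5%, where 4.8% of all genes were called), and Wwtr1 siRNA 8 higher and 1 lower (23.1%, where 8.96% of all genes were called). When 1 library at a time was left out, each of the 8 Yap siRNA calls was lost in 2 to 7 of 12 fits, and of the Wwtr1 siRNA calls P4ha2, Fkbp10, Loxl3, Loxl4 and Mrc2 were kept in all 12. The 14 modifying enzymes included 5 that fell after Yap+Wwtr1 siRNA, the prolyl 4-hydroxylase subunits P4ha1 (log2 fold change -0.69), P4ha2 (-0.88) and P4ha3 (-0.46) and the lysyl hydroxylases Plod2 (-0.52) and Plod3 (-0.27), and 2 that rose, the lysyl hydroxylase Plod1 (0.58) and the prolyl 3-hydroxylase P3h3 (0.39). The Plod3 call was lost in 7 of 12 fits that left out 1 library (-0.36 to -0.22): without negative siRNA replicate 1, 2 or 3, Yap siRNA replicate 1, Wwtr1 siRNA replicate 2 or double knockdown replicate 1 or 3.

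P4ha2, whose enzyme stabilizes the triple helix by hydroxylating proline, was at 5959, 6198 and 6324 normalized counts in controls, 8011, 7036 and 7205 after Yap siRNA, 2310, 2477 and 2878 after Wwtr1 siRNA and 2829, 2708 and 4890 after Yap+Wwtr1 siRNA. All Wwtr1-depleted libraries were below the negative control, and the fall passed after Wwtr1 siRNA (log2 fold change -1.28, adjusted p by limma = 0.00147) and in the double knockdown (-0.88, adjusted p by limma = 0.00297). Among 4 folding and secretion genes Fkbp10, a prolyl isomerase of the endoplasmic reticulum, rose in the double knockdown (0.33). None of the 6 propeptide cleavage genes was called there.

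Of 5 cross-linking enzymes, Lox and Loxl1 fell in the double knockdown and Loxl3 and Loxl4 rose. Lox, which oxidizes lysine to start cross-links, was at 7258, 8584 and 8456 normalized counts in controls, 5779, 6448 and 6625 after Yap siRNA, 6574, 6943 and 8426 after Wwtr1 siRNA and 4125, 3621 and 5803 after Yap+Wwtr1 siRNA. The double knockdown libraries lay below the negative control (log2 fold change -0.87, adjusted p by limma = 0.00126), as did those of Loxl1 (-0.56). Loxl4 rose after Wwtr1 siRNA (1.25) and with both siRNAs (0.74). The Loxl3 rise in the double knockdown (0.51) was lost without negative siRNA replicate 1 or 2 or double knockdown replicate 1 or 2 (0.38 to 0.74 over all fits that left out 1 library).

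Of 7 receptor and uptake genes tested, Itga10 among them, 3 integrin subunits fell after Yap+Wwtr1 siRNA, where 15.6% of all genes were called lower. The collagen receptors Ddr1 (mean 5508 normalized counts in controls and 4850 after Yap+Wwtr1 siRNA) and Ddr2 (13264 and 14384) were not called. Itga11, the alpha11 subunit that binds fibrillar collagen on fibroblasts, was at 7338, 8690 and 9130 normalized counts in controls, 4614, 5826 and 7282 after Yap siRNA, 6310, 6843 and 7850 after Wwtr1 siRNA and 2041, 1890 and 3153 after Yap+Wwtr1 siRNA. The double knockdown libraries were below all others (log2 fold change -1.86, adjusted p by limma = 4.89e-05). Its partner subunit Itgb1 (-1.004) and the alpha1 subunit Itga1 (-0.92) also fell, the latter call being lost without negative siRNA replicate 2 or 3, Wwtr1 siRNA replicate 2 or double knockdown replicate 2 or 3 (-1.18 to -0.65 over all fits that left out 1 library). Itga10 was listed at 0 in all negative siRNA libraries, at 9.22, 23.6 and 0 normalized counts after Yap siRNA, at 0, 0 and 3.05 after Wwtr1 siRNA and at 58.7, 53.5 and 27.2 after Yap+Wwtr1 siRNA. No test is given for Itga10, whose mean over the first 9 of these libraries, 3.98, was under the filter.

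Mrc2 and most degradation genes rose. Mrc2, an endocytic receptor that takes up collagen for lysosomal breakdown, was at 6874, 6330 and 4672 normalized counts in controls, 11010, 10261 and 8692 after Yap siRNA, 12615, 10673 and 10842 after Wwtr1 siRNA and 17561, 14663 and 18011 after Yap+Wwtr1 siRNA. Every knockdown library was above every negative control library (log2 fold change 0.76, 0.95 and 1.504, adjusted p by limma = 0.0139, 0.00217 and 2.98e-05). The Yap siRNA call was lost without Yap siRNA replicate 1 or 2 (0.59 to 0.87 over all fits that left out 1 library). Of 4 degradation genes tested 3 rose in the double knockdown, the gelatinase Mmp2 (0.85), the membrane protease Mmp14 (0.42) and the lysosomal protease cathepsin K, Ctsk (1.01).

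**Figure D4:**
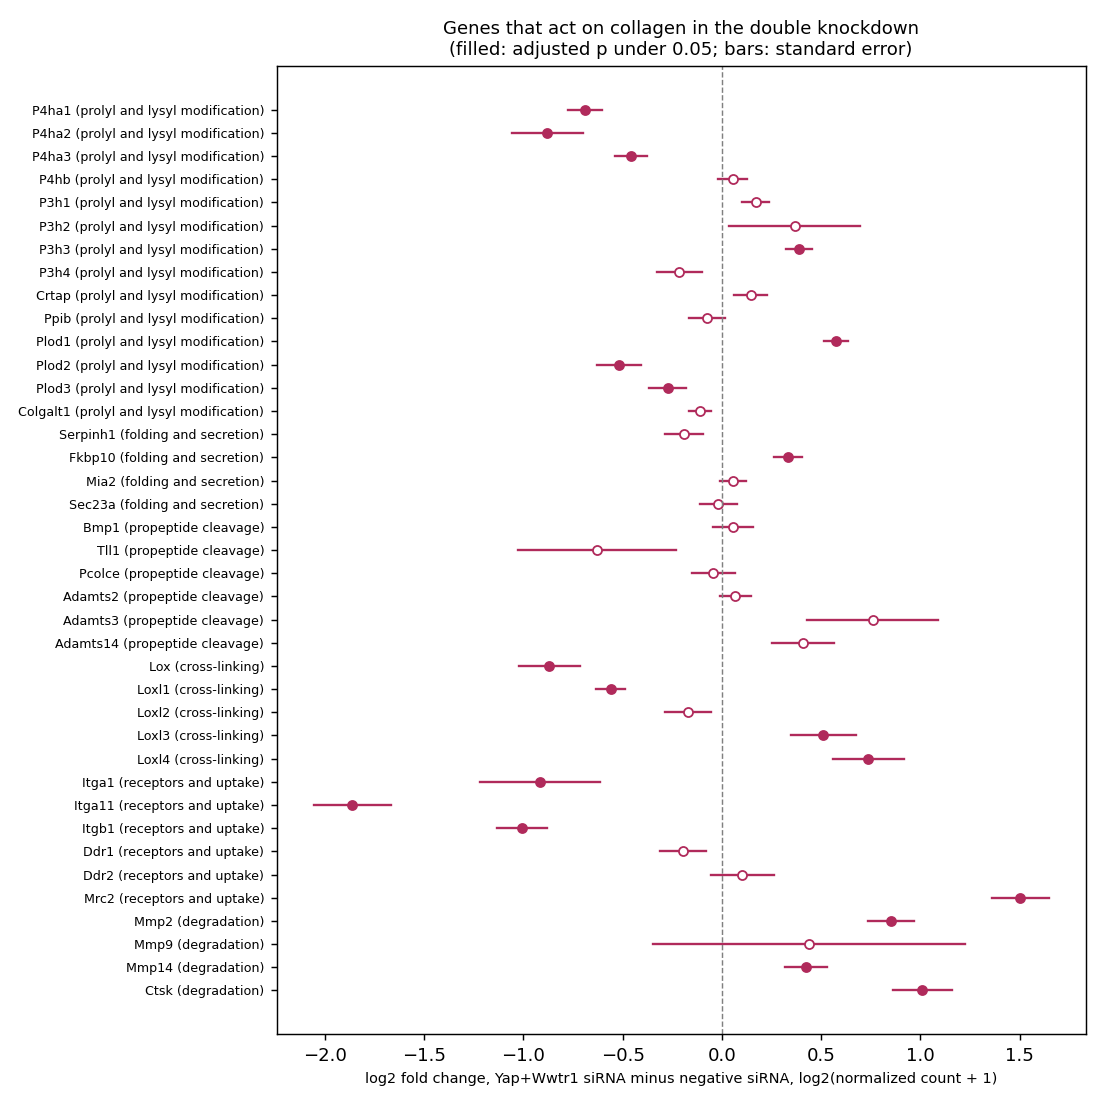
Log2 fold change of the double knockdown against negative siRNA, with its SE, for 39 genes that act on collagen chains, grouped by role, with filled symbols where the adjusted p by limma was under 0.05. Itga10, which was listed at 0 in all negative siRNA libraries, is not drawn. Among the genes drawn Mrc2 (1.504) lies furthest to the right and Itga11 (-1.86) furthest to the left.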

How the data were processed

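Bulk RNA was sequenced from 12 libraries. Per the labels and the study's methods, the authors trimmed reads with Trim Galore 0.6.5, aligned them to rn6 with HISAT2 version 2, assembled transcripts with StringTie and normalized with DESeq2. The table that the authors deposited lists a signal for each of 12271 symbols, the read count over the size factor of its library. All 12 value columns were matched to samples by name. The authors' fold changes and p-values, also deposited, were not used. Whether counting used strand was not stated in the sources used here, so reads of overlapping antisense genes cannot be told apart.

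All 147252 values (100%) came out as whole multiples of 1 read (tolerance 0.01 read), giving totals of 33.9 to 41.1 M reads. The number of libraries, 3 per group, limits the precision.

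limma 3.58.1 (R 4.3.3; lmFit, eBayes with trend) was fitted to log2(normalized count + 1) of all 12 libraries without covariates, for 11871 genes with a mean of at least 10, with Benjamini-Hochberg adjustment over all of them and a threshold of 0.05. The interaction is the double knockdown effect minus both single effects. Collagen shares were compared by exact permutation. The scripts were tested on simulated data.

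Count tests on the recovered reads served as alternatives. edgeR 4.0.16 (quasi-likelihood) called 536, 1039 and 3864 genes for Yap, Wwtr1 and Yap+Wwtr1 siRNA against the negative control, and DESeq2 1.42.0 called 1013, 1545 and 4205, where limma called 570, 1064 and 3888. Other alternatives changed the pseudocount, the filter, the scaling, the libraries in the fit, the trend and the replicate block, and left out each library in turn.

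As the check of pairing, same-numbered libraries had correlated deviations from their group means (0.104 to 0.276) among the negative, Yap and Wwtr1 siRNA groups. With the double knockdown the correlations were -0.127 to 0.18. The study prepared its replicates from separate litters.

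The chains, their classes, the marker lists and the pathway list were chosen with earlier results of these data known. Values in every library are given for Col1a1, Col3a1, Col4a1 and every chain called against the negative control, and the other chains are given by range, over all libraries or in the groups described. Values in every library of pathway genes are given for 4 examples and for Itga10, chosen after their values were seen. A further marker list is not reported here as a list. S100b was named after its values were seen.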

Additional observations from a re-analysis of the deposited data

How the results depend on the processing

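Over 59 results and 1385 alternative values, 1276 kept their direction and their side of the threshold, 49 fell short of it, 37 newly passed and 23 changed sign. No called value changed sign. Against the negative control, the count of chains called with Yap siRNA (1 as reported) was 4 by DESeq2 (which called 8.54% of all genes), 2 with the replicate block and 7 with the block and without the double knockdown libraries. With Wwtr1 siRNA (4) it was 8 by DESeq2 (13.02% of all genes), 9 with the block and without the double knockdown libraries and 2 without the trend (7.01%). Between the single knockdowns (3) it was 8 by DESeq2 (12.995%), 5 with only the groups compared in the fit (8.29%), 7 with the block and 11 with the block and without the double knockdown libraries. For the interaction (0) it was 3 by DESeq2 and 1, Col11a1, with pseudocount 10, a filter at a mean of 100, TMM scaling or the block. The share difference with Yap siRNA (1.80 percentage points) was 0.215 without Col1a1, Col1a2 and Col3a1. In each case the cause was not tested. The count for Yap+Wwtr1 siRNA (11) stayed within 1.5 times. It was 12 with the block (35.4% of all genes), which added Col4a3 (limma adjusted p = 0.0147). Correlations of same-numbered libraries with the double knockdown were -0.127 to 0.18, so whether the numbers pair those samples is not settled. DESeq2 called 7 chains higher and 6 lower (35.4% of all genes), adding Col4a3 (DESeq2 adjusted p = 0.0456) and Col6a2 (0.0445). The block changed no other call beyond those given here and in the report.

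Without trend Col15a1 in the double knockdown (limma adjusted p = 0.058), Col8a1 (0.0809) and Col16a1 (0.0515) with Wwtr1 siRNA and Col3a1 between the single knockdowns (0.0571) fell short. Col1a2 and Col4a1 in the double knockdown did so with pseudocount 10 (0.0503 and 0.0509) or only the groups compared (0.111 and 0.077). Uncalled values changed sign for Col8a1 in the double knockdown (-0.10 by limma, 0.0023 by edgeR, 0.013 by DESeq2) and Col3a1 (-0.04, 0.024 and 0.035).

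Leaving out 1 library at a time gave counts of 1 to 2 (Yap siRNA, where 0.935% to 6.44% of all genes were called), 2 to 6 (Wwtr1 siRNA, 4.62% to 11.95%), 8 to 11 (Yap+Wwtr1 siRNA, 23.1% to 34.2%), 1 to 6 (between the single knockdowns, 3.66% to 11.9%) and 0 to 1 (interaction, 0.261% to 1.35%). Share differences ran from 1.53 to 2.17, -0.291 to 0.344 and -0.67 to 0.684 percentage points for Yap, Wwtr1 and Yap+Wwtr1 siRNA. The Col1a1 to Col1a2 log2 ratio differed from the negative control by 0.059 to 0.18, 0.51 to 0.61 and 0.49 to 0.58, and that of Col3a1 to Col1a1 by 0.065 to 0.29, -0.91 to -0.69 and -0.38 to 0.0017. The ranges that crossed 0 were, with Yap siRNA, Col15a1 (-0.048 to 0.41), Col5a2 (-0.0099 to 0.11), Col14a1 (-0.12 to 0.028) and Col11a1 (-0.21 to 0.081), with Wwtr1 siRNA Col7a1 (-0.046 to 0.26), and in the double knockdown Col13a1 (-0.75 to 2.16), Col1a1 (-0.018 to 0.21), Col11a2 (-0.059 to 0.56), Col8a1 (-0.43 to 0.29) and Col3a1 (-0.39 to 0.14).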
